A study of Mus musculus with 20 samples.

Results

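The rows Gata5 and Gata5os, 2 of the 46329 gene rows of the count files, are described here in 20 RNA-seq libraries of mouse colorectal tumors and adjacent normal tissue. Gata5 encodes a transcription factor, and Gata5os is a noncoding gene annotated on the opposite strand of the same locus. The rows were chosen by name because both were among the largest rises in Erbb2-deficient tumors over the adjacent tissue of the same genotype, so that contrast is given below without a test.

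GATA factors are zinc-finger proteins that bind DNA at GATA motifs. Gata4, Gata5 and Gata6 are the members known for roles in the heart and in tissues derived from the endoderm, the gut lining among them. In human colorectal tumors the GATA5 promoter is known to be often methylated. Transcripts from the opposite strand of a gene are common beside genes of developmental regulators, and the function of Gata5os is not described in the sources used here.

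The first genotype was ApcMin/+, Erbb2 f/f with the Tg(Vil1-cre) transgene, called Erbb2-deficient here. The second, the littermate control, was ApcMin/+, Erbb2 f/f without cre. All mice were C57BL/6J and 100 days old, all carried the ApcMin allele, which gives rise to intestinal tumors, and all carried the floxed Erbb2 allele. Each genotype gave 5 tumor and 5 adjacent libraries. The Villin promoter drives cre in the intestinal epithelium, so other cells in a sample keep Erbb2, and the genotypes also differ by the transgene itself. The study asked how ERBB2 bears on the progression of colorectal cancer in this model. The labels call the replicates biological but do not say whether libraries with equal numbers came from 1 mouse. P-values measure the spread between these libraries.

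Which strand the reads came from decides what both rows mean. The libraries were made with a stranded kit, per the labels' protocols, and only 2.51% to 3.45% of reads lay on gene rows, 1071737 to 1944309 counts per library. The row of ND6, the mitochondrial protein gene coded on the strand opposite to the others, held 22599 to 199495 counts, more than the 12 other mitochondrial protein rows together (884 to 5698) in all 20 libraries. The Gapdh row, of a glycolytic enzyme that every cell uses, held 0 to 12 counts. A stranded library counted with the opposite strand setting gives such values, and the setting is not given in the sources used here. Erbb2 itself, with 1 to 22 counts in each library, was too low to check the genotype labels. The Gata5os row can therefore hold reads of the Gata5 messenger RNA, and the Gata5 row reads of the antisense RNA. Within each row the reads of the 2 transcripts cannot be told apart, and each symbol below names a row, not a transcript. The same limit holds for every other row named.

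In the GENCODE M21 annotation (build GRCm38, another build than the mm39 named in the submitters' processing notes) the Gata5 transcript has 6 exons and 3277 bases, and the Gata5os transcript has 5 exons and 1678 bases. Gata5os begins inside the first intron of Gata5, numbered along Gata5, and runs back across its first exon. The exons of the 2 genes overlap in 2 stretches of Gata5 exon 1, both coding, which together hold 258 bases, 7.87% of the Gata5 transcript and 15.38% of the Gata5os transcript. These stretches are shown because a read from them lies on an exon of both genes, so that only its strand decides which row counts it. They are printed along the Gata5 strand, and no base is singled out by capitals. The first lies at chr2:180333826-180333943 (minus strand, opposite Gata5os exon 2) and the second at chr2:180334182-180334321 (minus strand, opposite Gata5os exon 3).
Shared stretch 1: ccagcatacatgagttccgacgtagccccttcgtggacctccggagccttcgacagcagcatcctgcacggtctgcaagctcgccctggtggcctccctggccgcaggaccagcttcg
Shared stretch 2: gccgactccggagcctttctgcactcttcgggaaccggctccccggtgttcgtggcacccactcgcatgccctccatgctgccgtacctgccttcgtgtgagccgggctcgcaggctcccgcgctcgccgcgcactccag

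The windows around both start sites are shown because the rows were high in the same libraries. Each holds 300 bases, 250 before to 50 after the start, from RefSeq GRCm38.p6. Both strands were searched for CTTTGA, known as the core bound by TCF and LEF factors, the partners of beta-catenin in cells that have lost Apc. They were also searched for GATAA, bound by the zinc fingers of this factor family, and for TTTATNG, bound by the intestinal factors Cdx1 and Cdx2. The motifs occur in 16%, 25.4% and 10.9% of 32851 promoter windows of this length. The Gata5 window, chr2:180334630-180334929 (minus strand), held 1 match, TCAAAG, the reverse of CTTTGA, in capitals below. The Gata5os window, chr2:180332607-180332906 (plus strand), held 0 matches. The Gata5 window had 26 CpG pairs and 69.7% G and C, and the Gata5os window 0 CpG pairs and 42.7%, against medians of 7 pairs and 52.7% over all windows. A match is a run of letters and not a measured site.
Gata5 start window: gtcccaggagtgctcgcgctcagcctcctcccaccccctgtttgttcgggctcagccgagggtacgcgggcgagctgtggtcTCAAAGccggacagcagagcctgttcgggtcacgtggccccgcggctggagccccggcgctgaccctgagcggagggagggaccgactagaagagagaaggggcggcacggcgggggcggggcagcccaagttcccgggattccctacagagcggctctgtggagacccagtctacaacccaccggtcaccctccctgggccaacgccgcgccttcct
Gata5os start window: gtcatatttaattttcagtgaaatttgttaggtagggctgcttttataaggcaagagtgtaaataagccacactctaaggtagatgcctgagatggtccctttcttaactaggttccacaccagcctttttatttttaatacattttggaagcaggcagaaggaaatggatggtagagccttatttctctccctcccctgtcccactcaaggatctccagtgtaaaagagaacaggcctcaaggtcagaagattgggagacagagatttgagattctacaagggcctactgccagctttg

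In rows of cell type markers, control tumor 2 was unlike the rest, and control tumor 3 differed in its smooth muscle sum, mostly through 1 row. Spearman's rho over all tested rows was 0.92 to 0.94 among control tumors 1, 4 and 5. Between those and control tumor 3 it was 0.81 to 0.84. Results that rest on control tumors 2 and 3 are given with and without them. Both were also low in Gata5os and Gata5, so leaving them out is not independent of the levels described. Levels are CPM, each row's counts scaled to a common total over the 7119 tested rows, after TMM scaling, a correction for differences in library composition. The 10 epithelial rows (Epcam and Krt8 among them) summed to 18.2 CPM in control tumor 2, with 3 of 10 above 0. In the other control tumors they summed to 297 to 598 CPM, in Erbb2-deficient tumors to 400 to 739 CPM, in Erbb2-deficient adjacent tissue to 383 to 831 CPM and in control adjacent tissue to 368 to 557 CPM. In control tumor 2 the 6 B cell rows summed to 172 CPM and the 6 T cell rows to 41.8 CPM, all of them above 0, where no other library passed 42.1 and 5.59 CPM. Control tumor 2 thus had few counts in epithelial rows and many in lymphocyte rows, against its label as a colorectal tumor. In control tumor 3 the epithelial rows summed to 598 CPM, while the 10 smooth muscle rows (Myh11 and Des among them) summed to 529 CPM. The smooth muscle rows summed to 173 to 270 CPM in Erbb2-deficient tumors, 163 to 227 CPM in the other control tumors, 1062 to 1395 CPM in Erbb2-deficient adjacent tissue and 1096 to 2558 CPM in control adjacent tissue. Of the sum in control tumor 3, 482 CPM lay in the Tagln row, which lies opposite exons of Gm48529 and Pcsk7, and Myh11 was at no more than 5.52 CPM in any control tumor, while every Erbb2-deficient adjacent sample had at least 64.2 CPM and every control adjacent sample at least 80.7 CPM.

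Both rows were high in tumors of either genotype and at or near 0 in adjacent tissue, and 2 control tumors were exceptions. In Erbb2-deficient tumors 1 to 5 the Gata5os row held 286, 186, 201, 193 and 265 counts, or 216, 139, 140, 144 and 191 CPM. In Erbb2-deficient adjacent samples 1 to 5 it held 0, 1, 1, 1 and 2 counts, or 0, 0.831, 0.794, 0.757 and 1.32 CPM. The groups did not overlap, which was a condition of the choice of the rows. The lowest tumor, tumor 2, stood far above the highest adjacent sample. In control tumors 1 to 5 the Gata5os row held 288, 0, 41, 215 and 302 counts, or 201, 0, 37.7, 205 and 256 CPM. In control adjacent samples 1 to 5 it held 2, 0, 7, 1 and 2 counts, or 1.97, 0, 5.35, 0.896 and 1.78 CPM. Control tumors 1, 4 and 5 lay within or above the range of the Erbb2-deficient tumors, control tumor 3 lay between those and the adjacent samples, and control tumor 2, at 0, overlapped the adjacent samples. A count of 0 in control tumor 2 allows a level of up to 2.72 CPM (3 counts of that library, for counting error only).

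The Gata5 row followed the same order of groups at lower counts. In Erbb2-deficient tumors 1 to 5 it held 34, 33, 19, 18 and 58 counts, or 25.7, 24.6, 13.3, 13.4 and 41.8 CPM. In Erbb2-deficient adjacent tissue it was at 0 in all 5 libraries, which allows at most 1.75 to 2.49 CPM per library. The Erbb2-deficient groups did not overlap, again a condition of the choice. In control tumors 1 to 5 it held 51, 0, 3, 28 and 37 counts, or 35.6, 0, 2.76, 26.7 and 31.3 CPM. Control adjacent sample 4 had 1 count, 0.896 CPM, and the other 4 control adjacent samples had 0. Control tumor 2 again lay among the adjacent samples, and control tumor 3 was the lowest of the tumors with any count.

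**Figure D1:**
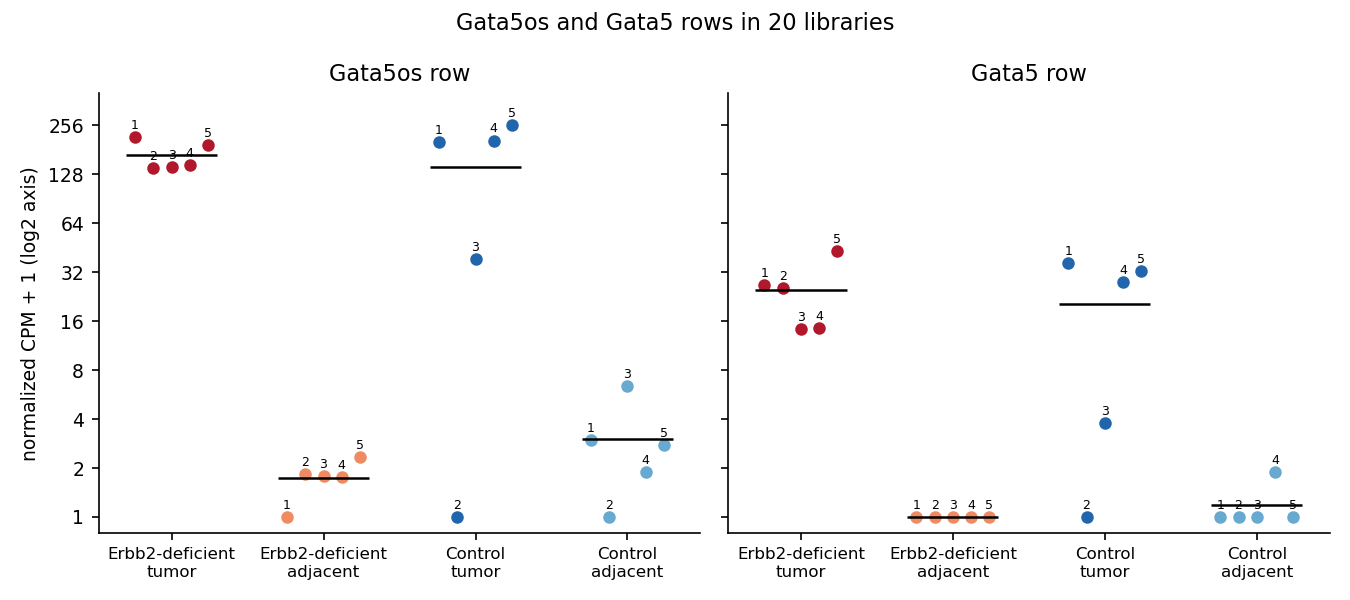
Normalized CPM plus 1 (log2 axis) of the Gata5os row (left) and the Gata5 row (right) in each of the 20 libraries. Points are libraries with their replicate number, and black lines are group means plus 1. All 5 Erbb2-deficient tumors and control tumors 1, 4 and 5 are high in both rows, control tumor 3 is intermediate and control tumor 2 is at 0.

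By group mean, Gata5os was at 166 ± 35.5 CPM in Erbb2-deficient tumors, 0.741 ± 0.474 CPM in Erbb2-deficient adjacent tissue, 140 ± 113 CPM in control tumors and 2.0 ± 2.03 CPM in control adjacent tissue (SD, n = 5 each). Gata5 was at 23.8 ± 11.7, 0, 19.3 ± 16.7 and 0.179 ± 0.401 CPM in the same groups. The order of levels in both rows was Erbb2-deficient tumors, control tumors, control adjacent tissue and Erbb2-deficient adjacent tissue. The tumor groups overlapped, and so did the adjacent groups. Without control tumors 2 and 3 the control tumors averaged 221 ± 30.6 CPM in Gata5os and 31.2 ± 4.47 CPM in Gata5 (SD, n = 3), above the Erbb2-deficient tumors. Without control tumor 2 alone they averaged 175 ± 94.8 and 24.1 ± 14.7 CPM (SD, n = 4), already above the Erbb2-deficient means. Per kilobase of annotated transcript, the mean level in Erbb2-deficient tumors was 98.9 CPM for Gata5os and 7.25 CPM for Gata5, and in control tumors 83.3 and 5.88 CPM. The lengths are those of the transcripts the symbols name. If rows were counted on the opposite strand, these values are not levels of either transcript and do not compare the 2 RNAs. In bulk tissue, fewer cells of a type and less RNA per cell cannot be told apart.

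**Figure D2:**
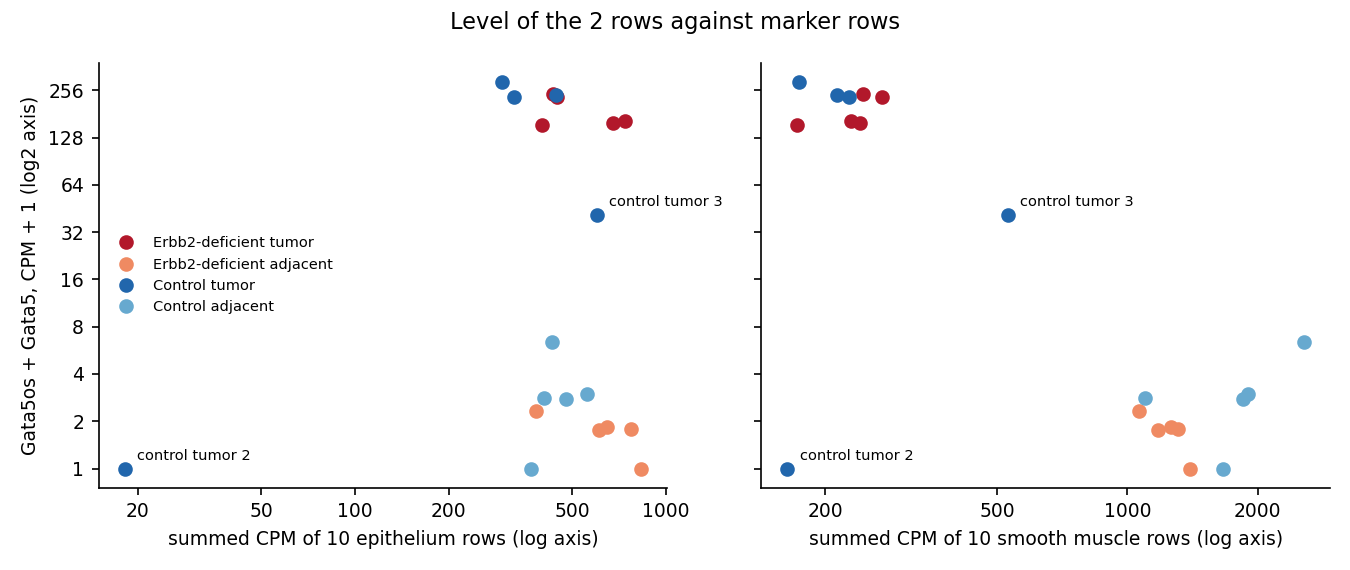
Summed CPM of Gata5os and Gata5 plus 1 (log2 axis) against the summed CPM of 10 epithelial marker rows (left) and 10 smooth muscle marker rows (right), both on log axes. Each point is 1 of the 20 libraries. Control tumor 2 is lowest in the epithelial rows at 18.2 CPM, and control tumor 3 lies at 529 CPM in the smooth muscle rows, with 482 CPM of it in the Tagln row.

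The tumors in which the Gata5 locus was high and the adjacent samples in which it was near 0 overlapped in their epithelial sums and differed in their smooth muscle sums. The part of these rows in the levels of Gata5os and Gata5 was not tested. By edgeR's quasi-likelihood test with Benjamini-Hochberg adjustment at 0.05, 10.7% of tested rows rose and 10.9% fell in control tumors against control adjacent tissue, and 13.0% rose and 14.5% fell in Erbb2-deficient tumors against their adjacent tissue. Of the 10 epithelial rows, 0 rose and 0 fell in control tumors against control adjacent tissue, and 0 rose and 1 fell in Erbb2-deficient tumors against their adjacent tissue. Of the 10 smooth muscle rows, 10 fell in the control comparison and 9 in the Erbb2-deficient one, with median log2 differences of -4.75 and -3.66, beside 0.07 and -0.06 over all tested rows. Rows of the mesothelium, a tissue that covers the gut wall, were near 0, with sums of at most 3.56 CPM in any library. Given the limit on strand above, this does not show that mesothelium was absent.

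The contrast that led to the choice of the rows is given as a description. Rows were ranked by fitted log2 difference of Erbb2-deficient tumors over their adjacent tissue. The ranking took rises that passed the threshold, averaged at least 5 CPM over all libraries and did not overlap between these groups. Rows named Gm and a number, or with a name ending in Rik, were left out. The lack of overlap of Gata5 and Gata5os between these groups was thus a condition of the list. In that list Gata5 was number 4 and Gata5os number 6. The rows at numbers 10 and 11 were Dkk2, coding a secreted WNT pathway regulator, and Fbxl21, at log2 differences of 6.64 and 6.44. In this contrast 13.0% of the 7119 tested rows were called as rises. Over pooled counts, Gata5os was 232-fold higher in Erbb2-deficient tumors than in adjacent tissue (exact 95% counting interval 99.3 to 717; 1131 against 5 counts). For Gata5, with 162 counts against 0, the ratio was 55.5 when adjacent tissue was taken at a floor of 3 counts over the group. With the counting error of both included, the exact lower 95% limit of that ratio was 44.6. These intervals cover counting error only and not the spread between mice. The rows were chosen by this rise, so the intervals are not a test of it.

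Control mice gave the same contrast in libraries the choice did not use, although the low-count filter and the estimate of spread were shared with the Erbb2-deficient libraries. Both rows rose in control tumors over control adjacent tissue. In a fit of all tested rows with edgeR's quasi-likelihood test and Benjamini-Hochberg adjustment, Gata5os rose by a log2 fold change of 6.02 ± 0.94 (SE; adjusted p = 0.000226) and was higher in 4 of 5 control tumors than in every control adjacent sample. Gata5 rose with an adjusted p of 0.00182 in the same edgeR test. Its pooled counts, 119 in control tumors against 1 in control adjacent tissue, gave a ratio of 117 with an exact 95% counting interval of 20.6 to 4657, and its fitted log2 value of 6.16 ± 1.18 (SE) depends on how that single count is handled. For Gata5os the pooled ratio was 69.3 (39.4 to 135; 846 against 12 counts). In this comparison 21.6% of tested rows were called, 10.7% as rises. By fitted fold change among rises in this comparison, Gata5 was number 24 and Gata5os number 27. The conditions of the list for Erbb2-deficient mice were not applied to this ranking. The numbers in that list and those given here are therefore not like measures, and they do not compare the genotypes.

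The control result depended on how the rows entered the fit. Rows were kept when enough libraries of any group reached a minimum count of 10, and in a fit of the 2 control groups alone neither row passed that filter. With those 2 groups and no filter, an alternative added after the data were seen, edgeR gave Gata5os an adjusted p of 0.0504, just above the threshold of 0.05, and Gata5 an adjusted p of 2.19e-07. Without control tumors 2 and 3, the log2 fold change of Gata5os was 6.67 ± 0.43 (SE; edgeR adjusted p = 2.19e-10) and the adjusted p of Gata5 was 7.35e-07. Those tumors were the lowest in both rows, so these p-values are not independent of the levels tested.

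The sum of both rows does not depend on which of them a read was assigned to, but it can miss reads of the locus. If rows were counted on the opposite strand, exon reads outside the 2 shared stretches would fall in neither row. Those stretches hold 7.87% of the Gata5 transcript and 15.38% of the Gata5os transcript. On the scale of log2(CPM + 1), control tumors exceeded control adjacent tissue by 4.42 (exact two-sided permutation test, p = 0.0476, smallest possible 0.00794, n = 5 each). The groups overlapped, because control tumor 2 was at 0. Leaving out any single control library other than control tumor 2 gave p = 0.0794 or p = 0.0952 in the exact permutation test. Without control tumor 2 the difference was 5.89 and the exact permutation p was 0.0159, the smallest the design allows. Without control tumors 2 and 3 it was 6.54 with an exact permutation p of 0.0357, again the smallest possible, and the groups did not overlap. The tumors left out were the lowest, so these results are not independent of the levels tested. At a pseudocount of 0.1 CPM with all libraries the exact permutation p was 0.0714.

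The genotypes did not differ beyond the spread between tumors. The rows had been picked for being high in Erbb2-deficient tumors, which bears on this comparison as well. By edgeR, Erbb2-deficient tumors differed from control tumors by a log2 fold change of 0.25 ± 0.68 (SE) in Gata5os (adjusted p = 0.936) and of 0.29 ± 0.67 (SE) in Gata5 (adjusted p = 0.926). The 95% intervals (normal, from the SE) ran from -1.09 to 1.58 for Gata5os and from -1.03 to 1.61 for Gata5, so a 2-fold difference either way lies inside them. Of all tested rows 0, or 0%, were called by edgeR, while 817 had an unadjusted p under 0.05 and DESeq2 called 26. Without control tumors 2 and 3 the direction turned, to -0.37 ± 0.32 in Gata5os and -0.36 ± 0.40 in Gata5 (SE; edgeR adjusted p = 0.718 and 0.786). In the summed level, Erbb2-deficient tumors exceeded control tumors by 1.69 on the log2(CPM + 1) scale (exact two-sided permutation p = 0.413, n = 5 each). Without control tumors 2 and 3 the difference was -0.43 (exact permutation p = 0.179, 5 against 3 tumors). The direction also turned without control tumor 2 alone (-0.065 in Gata5os and -0.016 in Gata5) and, for Gata5, without Erbb2-deficient tumor 5 (-0.012), while the summed level stayed at 0.22 without control tumor 2.

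In adjacent tissue the rows were too low for a comparison of genotypes. The Gata5os row held 5 counts in all over the Erbb2-deficient adjacent libraries and 12 over the control ones, 7 of them in control adjacent sample 3. The edgeR log2 difference was -1.40 ± 1.31 (SE, adjusted p = 0.932). The Gata5 row held 0 counts and 1 count, and no fold is given. Of all tested rows 0%, that is 0 rows, were called by edgeR, 418 had an unadjusted p under 0.05, and DESeq2 called 5. A difference between the genotypes was not detectable at this depth.

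Whether the tumor difference itself differed between genotypes was tested as an interaction. For Gata5os the tumor rise was larger in Erbb2-deficient mice by 1.65 ± 1.47 on the log2 scale (SE, edgeR adjusted p = 1.0). The edgeR adjusted p for Gata5 was also 1.0. Of all tested rows 0% were called in the interaction (0 rows, with 290 at an unadjusted p under 0.05). The contrast holds the Erbb2-deficient tumor difference by which the rows were chosen, so its direction is not independent of that choice.

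**Figure D3:**
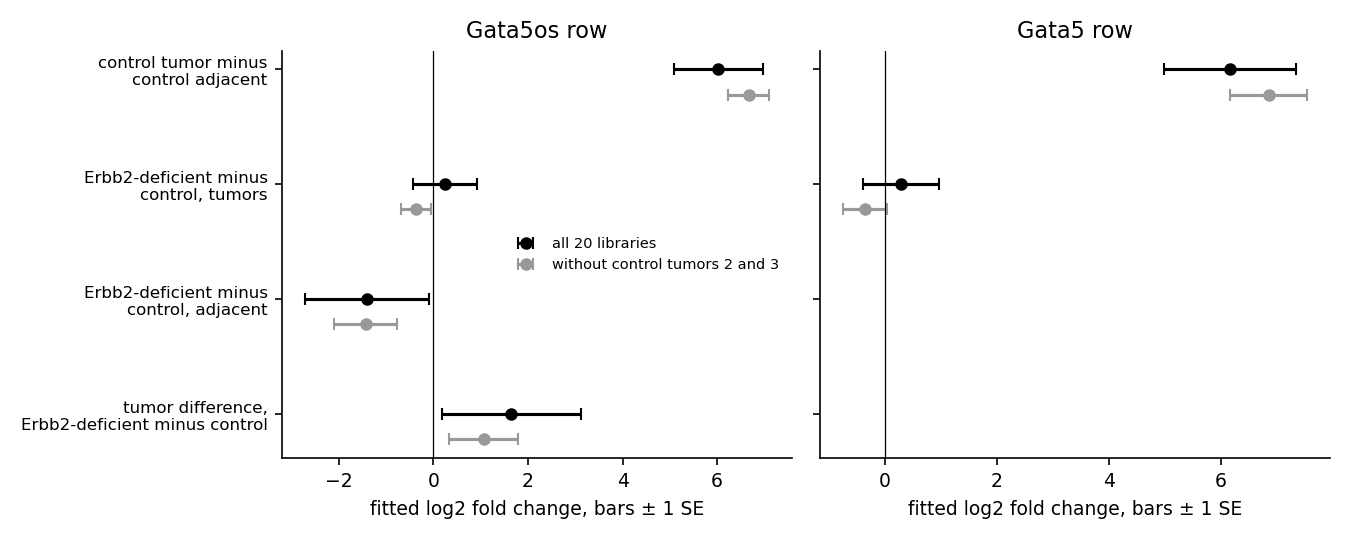
Fitted log2 fold changes (points) with ± 1 SE (bars) of the Gata5os row (left) and the Gata5 row (right), with all 20 libraries in black and without control tumors 2 and 3 in grey. The control tumor rise lies at 6.02 for Gata5os and 6.16 for Gata5, the genotype difference in tumors changes sign between black and grey, and Gata5 is not drawn for adjacent tissue or for the interaction because its adjacent counts were 0 or 1.

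The balance of the rows overlapped between tumors of both genotypes. Of the counts in both rows together, the Gata5os row held 89.4%, 84.9%, 91.4%, 91.5% and 82.0% in Erbb2-deficient tumors 1 to 5. It held 85.0%, 93.2%, 88.5% and 89.1% in control tumors 1, 3, 4 and 5, and control tumor 2 had no count in either row. The exact (Clopper-Pearson) 95% interval was widest in control tumor 3, from 81.3% to 98.6% on 44 counts, and in the other tumors spanned less than that. The mean share was 87.8% ± 4.18 (SD, n = 5) in Erbb2-deficient tumors and 88.9% ± 3.37 (SD, n = 4) in control tumors. The difference of -1.09 percentage points was smaller than the spread between tumors (exact two-sided permutation test, p = 0.698, smallest possible 0.0159). Erbb2-deficient tumor 5 had the lowest share, and its interval, 77.4% to 86.1%, did not reach that of tumor 3 (86.8% to 94.7%) or tumor 4 (86.9% to 94.9%) of the same genotype.

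**Figure D4:**
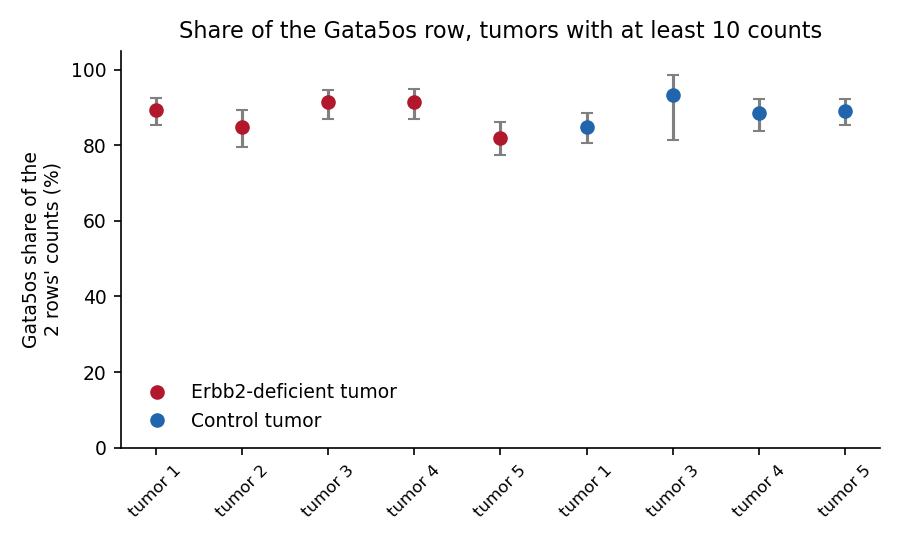
Share of the Gata5os row in the summed counts of both rows (percent) in the 9 tumors with at least 10 such counts, with exact 95% binomial intervals as bars. The shares run from 82.0% to 93.2% and the genotypes overlap.

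Across the 10 tumors the rows followed each other, with Pearson's r of 0.94 and Spearman's rho of 0.76 between their levels, as a description. The points share a library and a locus, and control tumors 2 and 3 carry much of the relation. Without them, over 8 tumors, r was 0.69 and rho 0.52. Among the high tumors the order differed between the rows. Control tumor 5 had the highest Gata5os level, 256 CPM, and Erbb2-deficient tumor 5 the highest Gata5 level, 41.8 CPM.

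No other row of the GATA family had enough counts to be tested. The list of GATA family rows held 10 names, and the 8 other than Gata5 and Gata5os did not pass the filter. Gata6, a member known to act in the colon epithelium, had a mean of 5.50 counts per library over all 20 libraries, and its opposite-strand row Gata6os 6.30. In CPM, Gata6 averaged 4.26 ± 1.62 in Erbb2-deficient tumors, 4.94 ± 2.69 in Erbb2-deficient adjacent tissue, 5.09 ± 4.05 in control tumors and 3.18 ± 1.76 in control adjacent tissue (SD, n = 5 each). Gata6os averaged 6.61 ± 3.33, 6.12 ± 3.72, 3.76 ± 3.67 and 3.19 ± 1.41 CPM in the same groups. In both rows the tumor and adjacent ranges overlapped in each genotype. Gata4, the partner of Gata6 in the small intestine, held at most 4 counts in a library, Gata3, a T cell factor, at most 2, Gata2, a blood progenitor factor, at most 3, and Gata1, an erythroid factor, at most 5. Trps1, a repressor of the family, held at most 3 counts and Zglp1, a germ cell factor, held 0 in every library.

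Among 8 cofactors that bind GATA proteins or join their complexes, 6 passed the filter. In control tumors over control adjacent tissue 3 rose and 0 fell, with a median log2 difference of 0.97, and in Erbb2-deficient mice 3 rose and 0 fell, with a median of 1.2. These stand beside 10.7% rises and a median of 0.07 over all rows in control mice, and 13.0% and -0.06 in Erbb2-deficient mice. The 3 rows were Zfpm1, Lmo2 and Tcf3 in both. Lmo2, at most 6.35 CPM in any adjacent sample, passed the filter through tumors, and Zfpm1 did so mainly. For such rows the filter itself favours a rise, so the count of rises is not independent of it. Zfpm1 codes FOG1, a zinc-finger protein that binds GATA factors. It averaged 13.0 ± 4.75 CPM in Erbb2-deficient tumors against 4.16 ± 0.476 in their adjacent tissue, and 12.9 ± 4.14 CPM in control tumors against 5.48 ± 3.76 in control adjacent tissue (SD, n = 5 each). Its edgeR adjusted p was 0.00664 in Erbb2-deficient mice and 0.041 in control mice, where 14 of 30 alternatives lost the call (adjusted p up to 0.232). Among these was leaving out any 1 of control tumors 1, 2 and 5, control adjacent samples 2, 4 and 5, Erbb2-deficient tumors 1 and 4 or Erbb2-deficient adjacent samples 2 and 5 (adjusted p = 0.0501 to 0.106). Tcf3, an E protein of GATA complexes in blood cells, averaged 25.0 ± 3.81 CPM in Erbb2-deficient tumors against 8.97 ± 4.05 in adjacent tissue, and 19.9 ± 4.77 against 6.92 ± 4.30 CPM in control tumors and control adjacent tissue (SD, n = 5 each). Its edgeR adjusted p was 0.00446 in Erbb2-deficient mice and 0.00631 in control mice. Without low-count filtering in a fit of the control groups alone it was 0.0543. Lmo2, an adaptor of the same complexes, rose by log2 differences of 2.12 in Erbb2-deficient mice and 2.68 in control mice (edgeR adjusted p = 0.037 and 0.0207). Control tumor 2, at 49.9 CPM, lay far above the mean of 7.07 CPM of control tumors 1, 4 and 5, and the control call was lost without control tumor 2, without control tumors 2 and 3 and without control adjacent sample 3 (edgeR adjusted p = 0.121, 0.0949 and 0.052). The call in Erbb2-deficient mice was lost without Erbb2-deficient tumor 1 or 3 or adjacent sample 1, 2, 4 or 5 (edgeR adjusted p = 0.055 to 0.175).

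The other 3 tested cofactor rows did not pass the test in either genotype with all libraries and the scaling and filter used throughout. Ldb1, which bridges the complex and whose row lies opposite an exon of Pprc1, had log2 differences of 0.95 in Erbb2-deficient mice and 0.72 in control mice (edgeR adjusted p = 0.0767 and 0.198). It passed in Erbb2-deficient mice in 7 of 30 alternatives (lowest adjusted p = 0.00949, without control tumors 2 and 3) and in control mice without control tumor 3 (edgeR adjusted p = 0.0244). Lyl1, a blood cell factor, had 0.72 and 0.27 (0.153 and 0.638), and its row, with a mean of 1676 counts, lies opposite an exon of Nfix. Without control tumors 2 and 3 it passed in both genotypes, at 0.78 in Erbb2-deficient mice and 0.79 in control mice (edgeR adjusted p = 0.000951 and 0.00287). In Erbb2-deficient mice it also passed without control tumor 2 and in the compared groups alone (edgeR adjusted p = 0.0187 and 0.000504). Cbfa2t3, a corepressor whose row lies opposite an exon of Gm10612, had -0.66 and 0.44 (0.284 and 0.52).

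Transcription factors of the gut epithelium fell or did not pass the test. Of 20 listed, 10 passed the filter. In control tumors 0 rose and 3 fell, and in Erbb2-deficient tumors 0 rose and 3 fell, beside 10.9% and 14.5% falls over all rows. The medians were -0.50 and -0.46. Among the 3, the same in both genotypes, were Cdx1, a homeobox factor of the intestine, and Klf4, a factor of differentiated cells. Klf4 averaged 16.8 ± 4.36 CPM in Erbb2-deficient tumors against 81.8 ± 20.5 in adjacent tissue, and 16.2 ± 22.2 CPM in control tumors against 64.1 ± 17.0 in control adjacent tissue (SD, n = 5 each). Its edgeR adjusted p was 0.00656 in Erbb2-deficient mice and 0.0198 in control mice. Cdx1 fell by log2 differences of 1.78 in Erbb2-deficient mice and 1.62 in control mice (edgeR adjusted p = 0.0136 and 0.0335). In control mice the call of Cdx1 was lost without control tumor 1, 4 or 5 or control adjacent sample 1 or 3 (edgeR adjusted p = 0.0519 to 0.079). That of Klf4 was lost without control tumor 1 or 4 (edgeR adjusted p = 0.0514 and 0.0537). With the control groups alone the edgeR adjusted p was 0.118 for Cdx1 and 0.127 for Klf4.

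Rows of genes that GATA factors are known to bind or regulate in the small intestine held few counts in these libraries. Of 20 listed, 4 passed the filter, and the rows of the enterocyte genes Sis, Fabp1, Apoa1, Apoa4 and Apoc3 were at 0 in every library. Since rows appear counted on the opposite strand, a row at 0 does not show that its gene was not expressed. In control tumors 0 rose and 3 fell, and in Erbb2-deficient tumors 0 rose and 2 fell, with medians of -1.07 and -1.04. Over all rows 10.9% fell in control mice and 14.5% in Erbb2-deficient mice, with medians of 0.07 and -0.06. Dll1, a Notch ligand of secretory progenitors, averaged 2.59 ± 2.45 CPM in Erbb2-deficient tumors against 14.1 ± 5.24 in adjacent tissue, and 3.59 ± 3.63 CPM in control tumors against 14.9 ± 7.70 in control adjacent tissue (SD, n = 5 each). Its edgeR adjusted p was 0.00555 in Erbb2-deficient mice and 0.0165 in control mice, and the row lies opposite an exon of A930024N18Rik. Dll1 had at most 6.48 CPM in Erbb2-deficient tumors and 9.08 CPM in control tumors. It passed the filter mainly through adjacent tissue, which favours a fall. The control call was lost without control tumor 1 or control adjacent sample 2 (edgeR adjusted p = 0.0501 and 0.0567). Crip1, an intestinal LIM protein, fell by 1.61 in Erbb2-deficient mice and 1.35 in control mice (edgeR adjusted p = 0.012 and 0.0465). Wnt2b, a WNT ligand of the stroma, fell by 0.78 in control mice (edgeR adjusted p = 0.0478), and in Erbb2-deficient mice its log2 difference was -0.46 (adjusted p = 0.217). The control calls of Crip1 and Wnt2b were lost in 22 of 30 and 24 of 31 alternatives (adjusted p up to 0.153 and 0.307), among them leaving out almost any 1 library of either genotype.

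The rows next to Gata5 on chromosome 2 were examined for the same pattern. The 15 annotated genes on each side were taken from RefSeq GRCm38.p6, used for order only. Of these 30, 29 were rows of the files and 10 passed the filter. In control tumors 3 rose and 0 fell, and in Erbb2-deficient tumors 3 rose and 1 fell, with medians of 0.27 and 0.02. Over all rows 10.7% rose and 10.9% fell in control mice, and 13.0% rose and 14.5% fell in Erbb2-deficient mice, with the medians given above. The rising rows were Gm52543, Lama5 and Tcfl5 in both. Gm52543 and Tcfl5, at most 2.67 and 1.66 CPM in any adjacent sample, could pass the filter only through tumors. For them the filter favours a rise, so the count of rises is not independent of it.

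Gm52543, a noncoding gene whose span overlaps that of Gata5os in RefSeq, came closest to the pattern of the pair. In Erbb2-deficient tumors 1 to 5 it held 36, 23, 7, 7 and 50 counts, and in Erbb2-deficient adjacent samples 0, 1, 0, 1 and 1. In control tumors 1 to 5 it held 38, 0, 4, 25 and 38 counts, and in control adjacent samples 0, 2, 0, 0 and 3. Control tumors 2 and 3 were the lowest tumors, as in Gata5os and Gata5, and the control groups overlapped. The log2 difference was 5.10 ± 1.06 in Erbb2-deficient mice and 4.17 ± 1.0 in control mice (SE; edgeR adjusted p = 0.00141 and 0.00577). The strand of Gm52543 is not in the table used, so reads it may share with Gata5os could not be examined.

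Tcfl5, a basic helix-loop-helix factor known from testis, lies 12 genes away, with an exon opposite the collagen gene Col9a3. In Erbb2-deficient tumors 1 to 5 its row held 14, 16, 3, 30 and 27 counts, and in Erbb2-deficient adjacent samples 1, 2, 1, 0 and 0. In control tumors 1 to 5 it held 48, 6, 9, 23 and 32 counts, and in control adjacent samples 0, 0, 2, 0 and 0. Neither genotype's groups overlapped, and how common this was among all tested rows is not given here. The log2 difference was 4.31 ± 0.80 in Erbb2-deficient mice and 5.46 ± 0.88 in control mice (SE; edgeR adjusted p = 0.000584 and 0.000267). Lama5, a laminin chain of basement membranes, averaged 31.4 ± 11.4 CPM in Erbb2-deficient tumors against 5.77 ± 2.88 in adjacent tissue, and 19.8 ± 16.4 CPM in control tumors against 4.10 ± 1.94 in control adjacent tissue (SD, n = 5 each; edgeR adjusted p = 0.0027 and 0.00869). Control tumors 2 and 3, at 2.72 and 5.52 CPM, were again the lowest tumors.

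Other named rows nearby did not rise past the threshold with all libraries and the scaling used throughout. Rps21, the nearest tested row on the other side and a ribosomal protein gene, had log2 differences of 0.09 in Erbb2-deficient mice and 0.25 in control mice (edgeR adjusted p = 0.896 and 0.753). Gm30144, a noncoding gene, had 0.29 and 0.71 (0.42 and 0.0622), and in control mice it passed without control tumor 2 or 3 or control adjacent sample 2 (edgeR adjusted p = 0.0437, 0.0459 and 0.049), without control tumors 2 and 3 (0.0314) and without TMM factors (log2 0.80, adjusted p = 0.047). Gid8, part of a ubiquitin ligase complex, fell by 1.69 in Erbb2-deficient mice (edgeR adjusted p = 0.0371). That call was lost without Erbb2-deficient tumor 1, 2, 3 or 4 or adjacent sample 1, 2 or 5 (adjusted p = 0.0715 to 0.0951). In control mice its log2 difference was -0.11 (edgeR adjusted p = 0.91) with control tumor 2 at 151 CPM, and without control tumor 2 it was -1.49 (adjusted p = 0.00559).

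**Figure D5:**
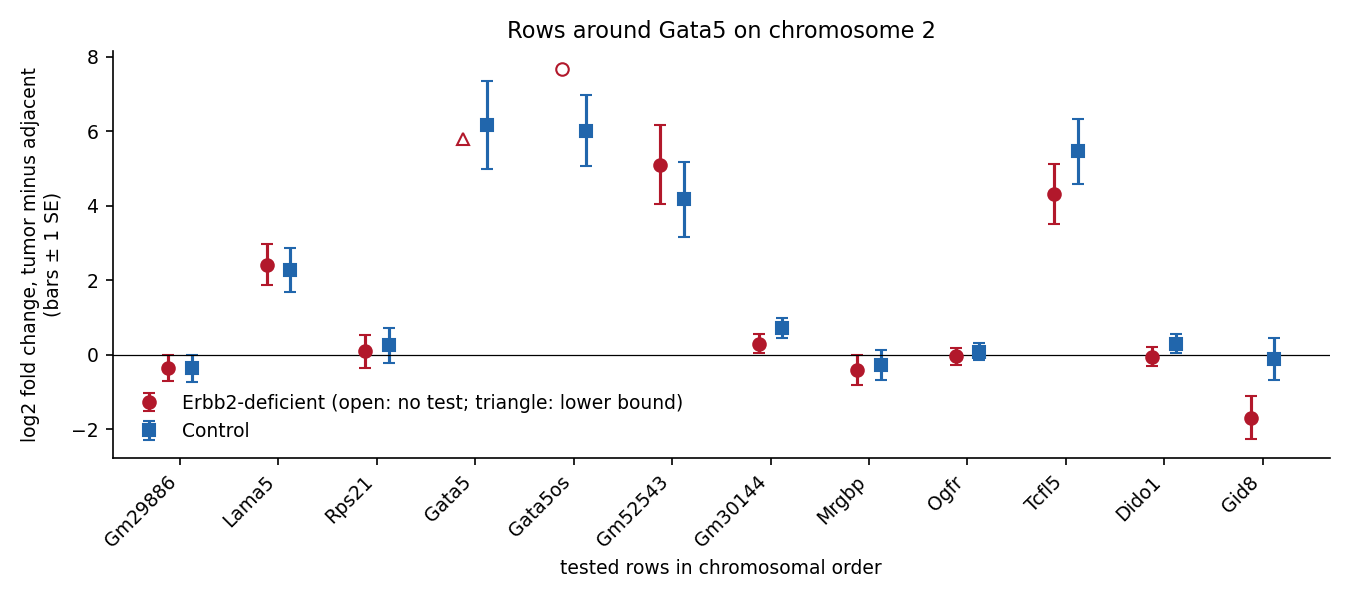
Fitted log2 difference of tumor minus adjacent tissue for the tested rows around Gata5, in chromosomal order and not to scale, in Erbb2-deficient mice (red) and control mice (blue), with bars of ± 1 SE. Open red symbols belong to the rows chosen by this contrast and carry no test. The triangle for Gata5, labelled lower bound, is not a fitted value. It is the log2 of the pooled ratio of 55.5, with adjacent tissue at a floor of 3 counts. Lama5, Gm52543 and Tcfl5 lie above 2 in both genotypes, and the other 7 neighbours lie below 1.

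The rows most like Gata5os were sought over the 10 tumors, among 6693 tested rows with a mean of at least 5 CPM in tumors. Likeness was Spearman's rho of log2 CPM, given as a description over tumors that share their depth and their outlying members. The median over all rows was 0.04 and the 95th percentile 0.65. Gata5 itself had a rho of 0.76 and was number 106. Among the 10 most alike were Tas1r1 (0.98), a taste receptor subunit, Jam3 and T2 (0.95 each), Gm52789 and Orc2 (0.94 each), Polr2l (0.93), Kcnq1ot1 (0.92), Mitd1 (0.90) and L3mbtl2 (0.89). Tas1r1 averaged 18.1 ± 5.48 CPM in Erbb2-deficient tumors against 12.0 ± 7.23 in adjacent tissue, and 15.6 ± 9.74 CPM in control tumors against 14.9 ± 5.41 in control adjacent tissue (SD, n = 5 each). Its groups overlapped. Of the 10, only T2 averaged under 1 CPM in both adjacent groups, as Gata5 did. It averaged 22.9 ± 4.36 CPM in Erbb2-deficient tumors against 0.532 ± 0.558 in adjacent tissue, and 19.5 ± 11.8 CPM in control tumors against 0.346 ± 0.474 in control adjacent tissue (SD, n = 5 each).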

How the data were processed

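The 20 deposited files hold the authors' raw counts of reads on each gene, with 1 table for a library and no normalization. Per the submitters' processing notes, build mm39 and the programs HTSeq (2.0.2), HISAT2 (2.2.1), DESeq2 and Trimmomatic were used, and the strand setting is not given in the sources used here. The 5 summary rows that name no gene were left out. Of 46329 rows, edgeR's filterByExpr (minimum count 10) kept 7119, and both rows passed. edgeR version 4.0.16 in R version 4.3.3 fitted a means model of 4 groups of 5 libraries to the counts, with TMM scaling, robust quasi-likelihood F tests and Benjamini-Hochberg adjustment over all tested rows at 0.05. The SE of a log2 fold change is its size over the square root of F. Alternatives used DESeq2 version 1.42.0, other filters and scalings, a replicate block and fewer libraries. Sums and shares were compared with exact permutation tests over libraries. No 2 libraries agreed within sampling noise (lowest chi-square per degree of freedom 5.34). The members, gene lists and tests were chosen with earlier results of these data known. Named were both rows, tested family and cofactor rows, up to 4 rows of smallest p in the other lists, neighbours that passed or lay nearest (2 per side), and the 10 rows most like Gata5os. Sox9 and Cubn, which that rule also takes, passed the test in neither genotype and are not described singly. A pair of other rows that it takes is not reported here. Total depth was 1071737 to 1944309 counts per library, and binomial and Poisson intervals cover counting error only.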

Additional observations from a re-analysis of the deposited data

Results flagged for a closer look

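Each group was examined for a library far from the others in Gata5os, Gata5, their sum and the share of Gata5os. Of the 13 combinations of group and measure in which values varied, 1 held such a library. The measures overlap, since they come from the same counts. The Gata5 row in control adjacent sample 4 was at 0.896 CPM, a single count, with the other 4 control adjacent samples at 0. With the other 4 at 0, any single count sets a library apart in this way.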

How the results depend on the processing

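The control rise of Gata5 kept its direction and its call, by edgeR or DESeq2, in 30 of 30 alternatives (adjusted p up to 0.0129), and that of Gata5os in 29 of 30, the exception being the control groups alone with no filter (log2 6.04, adjusted p = 0.0504). The genotype difference in tumors changed sign without control tumors 2 and 3 (Gata5os -0.37, Gata5 -0.36, summed level -0.43, share 0.33 percentage points). Leaving out 1 library gave -0.065 to 0.60 for Gata5os, -0.016 to 0.64 for Gata5 and -2.41 to 0.36 percentage points for the share. The control sum difference was 4.78 at a pseudocount of 0.1 (exact permutation p = 0.0714) and 3.84 to 5.89 with 1 library left out (p = 0.0159 to 0.0952). Rows called numbered 593 with the control groups alone and 2544 without control tumors 2 and 3 in control mice, against 1540, and 2939 without those tumors in Erbb2-deficient mice, against 1959. For genotype, DESeq2 called 26 rows in tumors and 5 in adjacent tissue, where no filter gave 1, leaving out control tumors 2 and 3 gave 1, and leaving out 1 library 0 to 2. Rows that missed the threshold changed sign in places. In control mice Lyl1 was at -0.0085 with the replicate block and -0.044 to 0.52 with 1 library left out, Rps21 was at -0.35 without control tumors 2 and 3 and -0.23 to 0.53 with 1 library left out, and Gid8 ran from -1.49 to 0.19. In Erbb2-deficient mice Rps21 ran from -0.096 to 0.39. Why these values moved was not tested.

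Equal replicate numbers were not taken to pair the samples, since the labels do not say that they mark the same mouse. The correlation of same-numbered tumor and adjacent deviations, -0.12 to 0.37, was over 0.1 in 6 of 10 pairs and not in all. In this check 4 of 10 tumors matched their own number best, and it does not settle whether the samples were paired. With the replicate block, the control rise was 5.74 for Gata5os and 6.05 for Gata5 (edgeR adjusted p = 0.000509 and 0.00206), 1428 rows were called in control mice, the control calls of Zfpm1 and Crip1 were lost (adjusted p = 0.0719 and 0.0567), Ldb1 passed in Erbb2-deficient mice (adjusted p = 0.0484), and the sum difference of 4.42 had p = 0.125 in an exact sign-flip test that cannot go below 0.0625. Neither genotype difference within a tissue could be fitted with the block. In the control groups alone neither row passed the filter. Low counts in adjacent tissue limit the size of every tumor ratio.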
